A study of Mus musculus with 12 samples.

Results

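The mRNAs of the nuclear-encoded respiratory chain were followed through 115 probe sets of 90 genes. These are all the probe sets whose single gene symbol begins with Ndufa, Ndufb, Ndufc, Ndufs, Ndufv, Uqcr, Cox4, Cox5, Cox6, Cox7, Cox8 or Atp5, or is Sdha, Sdhb, Sdhc, Sdhd or Cyc1, out of 21789 probe sets with 1 gene symbol and 35556 on the array. They divide by symbol into 41 probe sets (36 genes) of complex I, 4 (4 genes) of complex II, 12 (9 genes) of complex III, 21 (17 genes) of complex IV and 30 (17 genes) of complex V. The remaining 7 probe sets are of the complex I assembly factors Ndufaf1 to Ndufaf7, which share the Ndufa prefix but are not subunits.

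The respiratory chain sits in the inner mitochondrial membrane. Complex I (NADH dehydrogenase) and complex II (succinate dehydrogenase) pass electrons to ubiquinone, complex III (the cytochrome bc1 complex) passes them on to cytochrome c, and complex IV (cytochrome c oxidase) to oxygen, while complex V (ATP synthase) uses the resulting proton gradient to make ATP. Each complex except complex II joins subunits encoded by mitochondrial DNA to subunits encoded in the nucleus, and several complex IV subunits exist as a general form and as an alternative form typical of heart and skeletal muscle, lung or testis.

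RNA came from N2A cells, a mouse neuroblastoma line that puts out neurites when treated with retinoic acid, and was hybridised to 12 Affymetrix gene arrays with probes along the whole transcript, 3 for each of 4 groups. KD cells stably carried a short hairpin RNA (shRNA) against the long non-coding RNA Dali, and control cells stably carried a non-targeting vector. Both were selected in 200 ug/ml hygromycin B, which the control cells therefore share. RA samples of each kind were harvested after 72 h of exposure to 20 uM retinoic acid, in its all-trans form, and proliferating samples while growing. The RA medium held 2% serum and the growth medium 10%, so the effect of RA and that of lower serum cannot be told apart. The 4 groups are called KD RA, KD proliferating, control RA and control proliferating. The lines were grown from single resistant colonies, and the study describes 3 stable KD clones. Its methods call the samples of a group biological replicates, but the labels do not tie an array to a clone, and a p-value here speaks of the spread among these samples, which may be technical. Clone and knockdown cannot be told apart.

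The values are log2 expression values on a scale common to all 12 arrays, with array medians between 7.146 and 7.209. The correlation was at least 0.9924 within a group and 0.9859 to 0.9926 across groups. No probe set was assigned to Dali, so the knockdown was not checked on these arrays. Of the neuroblast and sympathoadrenal markers, 11 were measured and all 11 lay above the median level of the probe sets tested (7.44), against 0 of 7 glial, 2 of 6 fibroblast, 0 of 7 immune and endothelial and 1 of 6 muscle markers. Some of the neuroblast markers differed between the groups. In KD cells Dbh was called higher (0.41) and Phox2a lower (-0.42) after RA, and Hand2, Mycn, Dbh and Th were called higher (0.38 to 0.62) in proliferating cells. With RA, Mycn, Dbh and Th were lower in KD cells (-0.44 to -0.93) and Dbh, Th and Ncam1 in control cells (-0.42 to -0.62). The mean level over the 11 was 9.74 to 9.85 in KD RA, 10.10 to 10.14 in KD proliferating, 9.79 to 9.82 in control RA and 9.92 to 9.96 in control proliferating arrays, and its part in the results was not tested. Of the respiratory chain probe sets, 108 of 115 lay above the median level. In arrays of bulk RNA, fewer cells of a type and less RNA per cell cannot be told apart.

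Compared across the 4 groups, complexes I, III, IV and V were ordered alike, with the lowest values in KD RA and the highest in control proliferating cells. For each array, the deviation of every probe set from its own mean over the 12 arrays was taken and the median over a complex was formed. Over all 115 probe sets this median was -0.10, -0.13 and -0.18 in the KD RA arrays and -0.04, 0.02 and 0.00 in the KD proliferating arrays. It was 0.08, 0.00 and 0.04 in the control RA arrays and 0.10, 0.11 and 0.12 in the control proliferating arrays. The KD RA arrays lay below all others and the control proliferating arrays above all others, whereas the KD proliferating and control RA arrays overlapped. The same medians over the 10894 probe sets above the median level lay between -0.03 and 0.04 in all 12 arrays. The arrays were quantile-normalised to a common distribution, which limits how far a median over so many probe sets can move. The narrow range of these medians therefore cannot show whether the respiratory chain stands apart from other sets of its size.

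**Figure D1:**
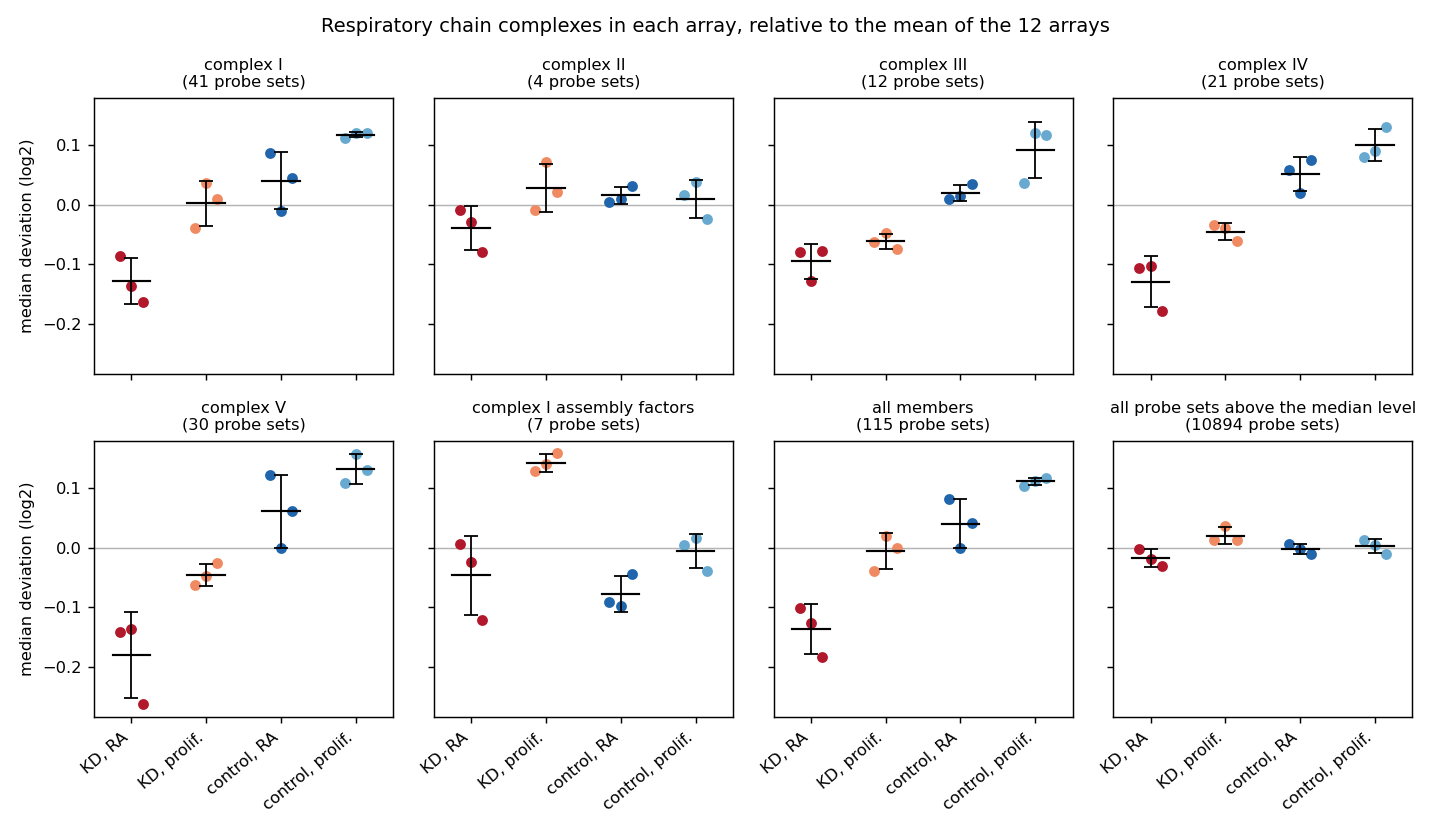
Median deviation (log2) of the probe sets of each complex from their own mean over the 12 arrays, 1 point per array, with the mean and SD of the 3 arrays of a group as line and bar. Complexes I, III, IV and V are lowest in KD RA cells and highest in control proliferating cells, complex II stays within -0.08 to 0.07, and the complex I assembly factors are highest in KD proliferating cells.

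Complex V spanned the widest range of the 5, with group means of -0.18 ± 0.07 in KD RA cells and 0.13 ± 0.02 in control proliferating cells (SD, n = 3 each). Complex I averaged -0.13 ± 0.04 in KD RA cells, 0.00 ± 0.04 in KD proliferating cells, 0.04 ± 0.05 in control RA cells and 0.12 ± 0.01 in control proliferating cells. In complex II the order was different. Its 4 probe sets averaged -0.04 ± 0.04 in KD RA cells, 0.03 ± 0.04 in KD proliferating cells, 0.02 ± 0.02 in control RA cells and 0.01 ± 0.03 in control proliferating cells, and the arrays of the KD proliferating, control RA and control proliferating groups overlapped. The 7 assembly factors took yet another order, at 0.14 ± 0.02 in KD proliferating cells and between -0.08 and -0.01 in the other 3 groups.

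KD cells were compared with control cells in each state, a comparison in which clone and knockdown cannot be told apart. After RA, 19 of the 115 probe sets (12 genes) were lower in KD than in control cells and 0 were higher. To be called, a probe set needed a change of at least 1.3-fold (0.38 on the log2 scale) and an adjusted p under 0.05 (Benjamini-Hochberg) in limma, a linear model fitted to all 21789 probe sets. Over all probe sets tested, 3.8% were called in this comparison, 1.98% lower and 1.82% higher. By the adjusted p alone 54 members were lower and 5 higher, where 12% of all probe sets were lower and 9.6% higher. At an unadjusted p under 0.05 the numbers were 59 lower and 7 higher. Of the 10894 probe sets above the median level, 5.25% were called. By the adjusted p alone 2004 of these were lower and 1732 higher. The median log2 change was -0.15 over the members and -0.03 over all probe sets tested. Of the 115 members, 89 (77.4%) lay below 0, where 58.4% of all probe sets and 53.8% of those above the median level did.

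In proliferating cells 9 of the 115 probe sets (6 genes) were lower in KD than in control cells and 0 were higher, where 3.36% of all probe sets were called, 1.42% lower and 1.95% higher. By the adjusted p alone 40 were lower and 4 higher, against 7.67% and 10.8% of all probe sets, and at an unadjusted p under 0.05 the numbers were 55 and 9. Of the 10894 probe sets above the median level, 4.82% were called. By the adjusted p alone 1310 of these were lower and 2071 higher. The median change was -0.11 over the members and -0.01 over all probe sets. Of the 12 genes called after RA and the 6 called in proliferating cells, 5 were shared, namely Atp5md, Cox6c, Ndufb9, Uqcr11 and Uqcrh. The 3 arrays of KD cells all lay below the 3 of control cells for 58 members after RA and for 61 in proliferating cells, where this held for 19.2% and 18.8% of all probe sets. The reverse order was found for 4 and 14 members, against 14.7% and 19.9% of all probe sets.

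**Figure D2:**
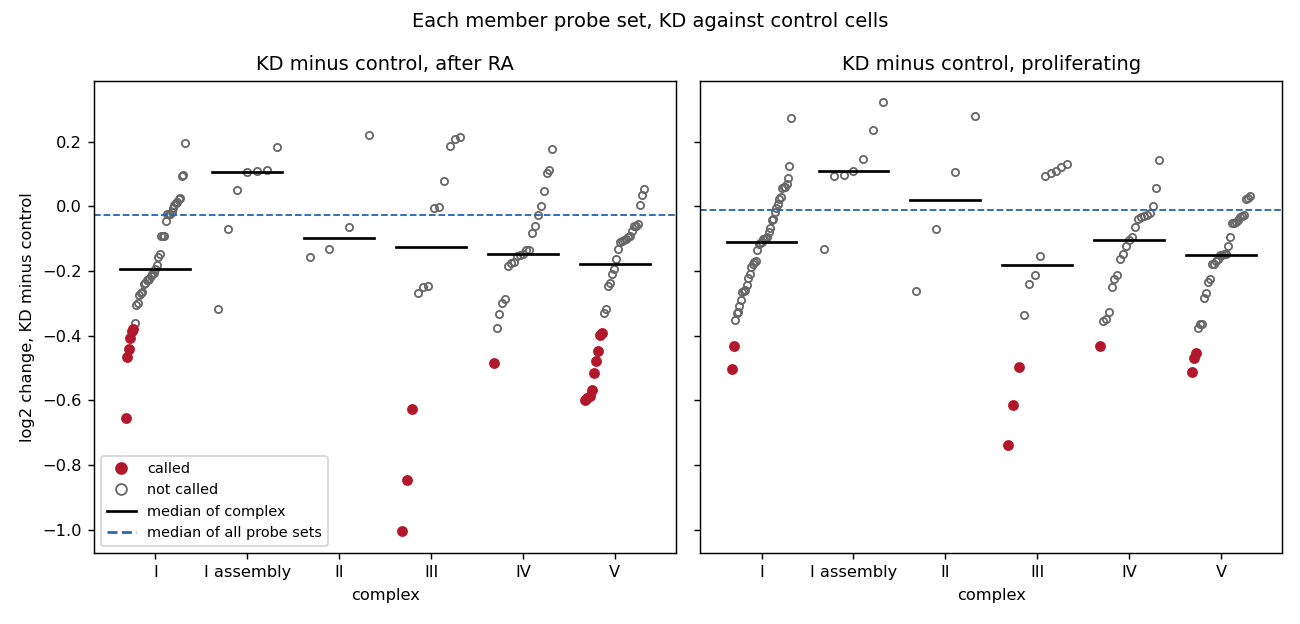
Log2 change (KD minus control) of each member probe set by complex, after RA on the left and in proliferating cells on the right, with called probe sets filled, the median of each complex as a black line and the median of all probe sets tested as a dashed line. The called probe sets, 19 after RA and 9 in proliferating cells, all lie below 0, and the 2 probe sets of Uqcr11 in complex III lie lowest in both panels.

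The genes called in complex III, Uqcr11 and Uqcrh, encode small subunits, and Uqcr11 had the largest fall of all members in both states. Uqcr11 encodes the smallest subunit of the complex and Uqcrh the hinge protein that helps cytochrome c1 receive cytochrome c. On its second probe set Uqcr11 read 9.16, 9.11 and 9.22 in KD RA cells and 10.12, 10.23 and 10.16 in control RA cells, and 9.66, 9.58 and 9.58 in KD proliferating cells and 10.31, 10.29 and 10.43 in control proliferating cells. In both states the highest KD array lay well below the lowest control array. The log2 change was -1.005 ± 0.05 (SE) after RA (limma adjusted p = 2.62e-07), a level that fell by 50.2%, and -0.74 ± 0.05 in proliferating cells (adjusted p = 2.7e-06), a level that fell by 40.1%. Its first probe set changed by -0.85 ± 0.09 after RA (limma adjusted p = 4.8e-05) and -0.61 ± 0.09 in proliferating cells (adjusted p = 0.000444).

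Uqcrh read 9.61, 9.44 and 9.29 in KD RA cells and 9.79, 10.15 and 10.28 in control RA cells, and 9.77, 9.69 and 9.69 in KD proliferating cells and 10.29, 10.10 and 10.25 in control proliferating cells. The groups did not overlap in either state, although control RA array 1 lay closer to the KD arrays than to the other two of its group. It fell by 0.63 ± 0.11 after RA (limma adjusted p = 0.00173) and by 0.50 ± 0.11 in proliferating cells (adjusted p = 0.00778) on the log2 scale. Of the 8 probe sets of small subunits (Uqcr10, Uqcr11, Uqcrb, Uqcrh and Uqcrq), 3 were called after RA and the same number in proliferating cells, with median changes of -0.25 and -0.23.

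In the large subunits of complex III no call was made. The 4 probe sets of Cyc1, the cytochrome c1 heme protein, of the Rieske iron-sulfur protein gene Uqcrfs1 and of the core protein genes Uqcrc1 and Uqcrc2 had median changes of 0.00 after RA and -0.02 in proliferating cells, with 0 called. Cyc1 had changes of -0.27 ± 0.06 and -0.34 ± 0.06 (limma adjusted p = 0.00443 and 0.00122), short of the 1.3-fold limit. Uqcrb, which encodes the ubiquinone-binding protein, had positive changes on its 3 probe sets, of 0.19 to 0.21 after RA and 0.09 to 0.12 in proliferating cells, and was not called.

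In complex V, 9 of 30 probe sets (30%, against 3.8% of all probe sets called) were lower in KD cells after RA. They are of 4 genes, where the 6 called in complex I are of 5. Atp5g1, Atp5g2 and Atp5g3 encode the same mature c subunit, the protein of the membrane ring that turns with proton flow, from 3 separate genes. Atp5g2 on its second probe set read 11.85, 11.63 and 11.69 in KD RA cells and 12.28, 12.30 and 12.34 in control RA cells, and 11.87, 11.94 and 11.90 in KD proliferating cells and 12.27, 12.28 and 12.29 in control proliferating cells. The groups were separate in both states, and the 3 probe sets of the gene gave changes of -0.57 to -0.60 after RA (limma adjusted p from 1.61e-05 to 2.31e-05). In proliferating cells they gave -0.36 to -0.38, at adjusted p from 0.000453 to 0.000518 and just under the 1.3-fold limit.

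Atp5g1 on its first probe set read 11.63, 11.46 and 11.45 in KD RA cells and 11.94, 12.10 and 12.05 in control RA cells, and fell by 0.51 ± 0.06 on the log2 scale (limma adjusted p = 6.88e-05); its second probe set fell by 0.59 ± 0.07 (adjusted p = 8.76e-05). In proliferating cells the changes were -0.27 and -0.28, not called. Atp5g3 had -0.19 ± 0.04 after RA and -0.22 ± 0.04 in proliferating cells, not called. Across the c-ring, 6 of 6 probe sets, which are of 3 genes, had all 3 KD arrays below all 3 control arrays in both states. This order held for 19.2% of all probe sets after RA and for 18.8% in proliferating cells. The median change over the 6 was -0.58 after RA and -0.32 in proliferating cells.

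Among the small membrane subunits of complex V, Atp5j2 (subunit f) read 11.37, 11.30 and 11.30 in KD RA cells and 11.77, 11.80 and 11.82 in control RA cells, groups that lay far apart relative to their spread. It fell by 0.48 ± 0.04 on the log2 scale after RA (limma adjusted p = 1.74e-05) and had a change of -0.24 ± 0.04 in proliferating cells, not called. Atp5md, which encodes the protein DAPIT of the ATP synthase dimer, was lower in both states, by -0.39 to -0.45 after RA and -0.45 to -0.51 in proliferating cells on its 3 probe sets. On the first of them it read 10.81, 10.90 and 10.65 in KD RA cells, 11.27, 11.15 and 11.13 in control RA cells, 10.91, 10.93 and 10.91 in KD proliferating cells and 11.47, 11.44 and 11.26 in control proliferating cells. The call after RA rested on single arrays: without KD RA array 3 the 3 probe sets gave -0.33, -0.34 and -0.35, and without control RA array 1 the first 2 gave -0.36 and -0.35, all under 1.3-fold.

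In the catalytic head of complex V no call was made. Atp5a1 and Atp5b, which encode the alpha and beta subunits where ATP is made, had changes of 0.03 ± 0.04 and 0.05 ± 0.04 after RA and of 0.03 ± 0.04 each in proliferating cells. The 5 head and stalk genes Atp5a1, Atp5b, Atp5c1, Atp5d and Atp5e had median changes of -0.06 after RA and 0.02 in proliferating cells, with 0 called. Atp5e stood lowest of the 5 after RA, at -0.33 ± 0.07 (limma adjusted p = 0.00551), and passed the fold limit with array weights (-0.40) or without KD RA array 3 (-0.38); in proliferating cells it was at -0.03 ± 0.07. The 7 probe sets of the peripheral stalk (Atp5pb, Atp5h, Atp5j and Atp5o) had -0.16 and -0.15, with 0 called.

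In complex I, 6 of 41 probe sets (5 genes) were lower in KD cells after RA and 2 of 41 (Ndufb9 and Ndufa4l2) in proliferating cells, with median changes of -0.19 and -0.11. The shares called were 14.6% and 4.88%, against 3.8% and 3.36% of all probe sets. Ndufa4 and its paralogue Ndufa4l2 are counted here by name, although Ndufa4 has since been assigned to complex IV. Apart from Ndufa4l2, only Ndufb9 was called in proliferating cells. Above the median level these background shares were 5.25% and 4.82%. Ndufa11, an accessory subunit of the membrane arm, read 9.67, 9.44 and 9.56 in KD RA cells and 10.25, 10.22 and 10.16 in control RA cells on its first probe set, and 9.96, 10.05 and 9.97 in KD proliferating cells and 10.12, 10.14 and 10.25 in control proliferating cells. The groups did not overlap in either state, but the gap was much wider after RA. It fell by 0.66 ± 0.06 on the log2 scale after RA (limma adjusted p = 2.15e-05) and had -0.18 ± 0.06 in proliferating cells (adjusted p = 0.0635). The second probe set gave -0.39 ± 0.05 and -0.21 ± 0.05, and its call after RA was lost at -0.37 without KD RA array 2 or control RA array 3.

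Ndufb9, an accessory subunit of the distal membrane arm, was lower in both states. It read 11.12, 11.12 and 11.03 in KD RA cells and 11.53, 11.53 and 11.54 in control RA cells, and 11.21, 11.16 and 11.22 in KD proliferating cells and 11.63, 11.69 and 11.57 in control proliferating cells, with no overlap. The changes were -0.44 ± 0.04 after RA (limma adjusted p = 4.17e-05) and -0.43 ± 0.04 in proliferating cells (adjusted p = 5.19e-05).

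The other complex I genes called after RA were Ndufa7, Ndufs8 and Ndufb8. Ndufa7, an accessory subunit of the matrix arm, read 9.61, 9.54 and 9.61 in KD RA cells and 10.01, 10.08 and 10.08 in control RA cells and fell by 0.47 ± 0.05 on the log2 scale (limma adjusted p = 6.34e-05). Ndufs8, a core subunit that carries iron-sulfur clusters, read 10.01, 9.85 and 9.87 in KD RA cells and 10.27, 10.33 and 10.36 in control RA cells and fell by 0.41 ± 0.05 (adjusted p = 0.000187). In proliferating cells Ndufa7 had a change of -0.27 ± 0.05 and Ndufs8 of -0.08 ± 0.05, neither called.

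Ndufb8, a membrane-arm accessory subunit, lay at the fold limit with -0.38 ± 0.06 after RA (limma adjusted p = 0.00131). Its value was -0.29 without control RA array 1, -0.38 without KD RA array 1 and -0.37 without KD RA array 3, each under the limit. By role, the 7 probe sets of core subunits of the matrix arm (Ndufs1, Ndufs3, Ndufs7, Ndufs8, Ndufv1 and Ndufv2) had median changes of -0.15 after RA and 0.00 in proliferating cells, and the 34 accessory probe sets had -0.20 and -0.15. Ndufa4 and Ndufa4l2 are among the accessory probe sets by their names.

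Complex IV, counted without Ndufa4 and Ndufa4l2, had 1 called probe set of 21 in each state (4.76%). This is near the share of all probe sets (3.8% after RA and 3.36% in proliferating cells) and of those above the median level (5.25% and 4.82%). By the adjusted p alone 8 of the 21 were lower after RA and 7 in proliferating cells, with 0 higher in either. Of all probe sets 12% were lower and 9.6% higher after RA, and 7.67% and 10.8% in proliferating cells. The called probe set was the first of the 2 of Cox6c, a small membrane subunit. It read 12.50, 12.45 and 12.25 in KD RA cells and 12.90, 12.87 and 12.88 in control RA cells, and 12.62, 12.62 and 12.60 in KD proliferating cells and 13.11, 13.04 and 12.98 in control proliferating cells. The groups were separate, with changes of -0.48 ± 0.06 (limma adjusted p = 0.000142) and -0.43 ± 0.06 (adjusted p = 0.000321). Its second probe set had smaller changes in the same direction, of -0.29 ± 0.04 and -0.35 ± 0.04, which passed the adjusted p (0.000547 and 0.000141) but not 1.3-fold.

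Most other complex IV subunits of general use had small negative changes, with a median over 14 probe sets of -0.16 in both states. Cox6b1, an intermembrane-space subunit, came closest to a call after RA, at -0.38 ± 0.06, and passed the fold limit without KD RA array 1 (-0.45) or control RA array 1 (-0.40). Cox7b had -0.30 and -0.33 after RA on its 2 probe sets. Cox4i1, the general form of the large nuclear-encoded subunit 4, had 0.11 ± 0.07 after RA and -0.03 ± 0.07 in proliferating cells. The 7 alternative isoforms with a Cox symbol had median changes of -0.03 and -0.09. In 0 of the 7 did the KD arrays all lie below the control arrays in either state, where this held for 19.2% and 18.8% of all probe sets. Ndufa4l2, counted with complex I by its name, is not among these 7 and was called lower in proliferating cells.

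In complex II no subunit was called in either state. Sdha, the flavoprotein that oxidises succinate, read 11.27, 11.16 and 11.18 in KD RA cells and 11.003, 10.954 and 10.994 in control RA cells, and 11.20, 11.23 and 11.24 in KD proliferating cells and 10.97, 10.93 and 10.95 in control proliferating cells. The KD arrays lay above the control arrays in both states, with changes of 0.22 ± 0.04 (limma adjusted p = 0.00244) and 0.28 ± 0.04 (adjusted p = 0.000598), under 1.3-fold. Sdhb, the iron-sulfur subunit, had -0.16 ± 0.04 and -0.07 ± 0.04, and the membrane anchors Sdhc and Sdhd had -0.13 ± 0.04 and -0.07 ± 0.06 after RA and -0.26 ± 0.04 and 0.11 ± 0.06 in proliferating cells. At an unadjusted p under 0.05, 1 complex II probe set was higher and 2 were lower after RA, and 1 was higher and 1 lower in proliferating cells.

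The complex I assembly factors, which build the complex without staying in it, had positive median changes of 0.11 in each state, with 0 of 7 called. At an unadjusted p under 0.05, 2 were higher and 1 lower after RA, and 3 were higher and 1 lower in proliferating cells. Ndufaf1 was at 0.18 ± 0.06 after RA and 0.32 ± 0.06 in proliferating cells (limma adjusted p = 0.0425 and 0.00233). Ndufaf3 went the other way, at -0.32 after RA (adjusted p = 0.0015) and -0.13 in proliferating cells.

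**Figure D3:**
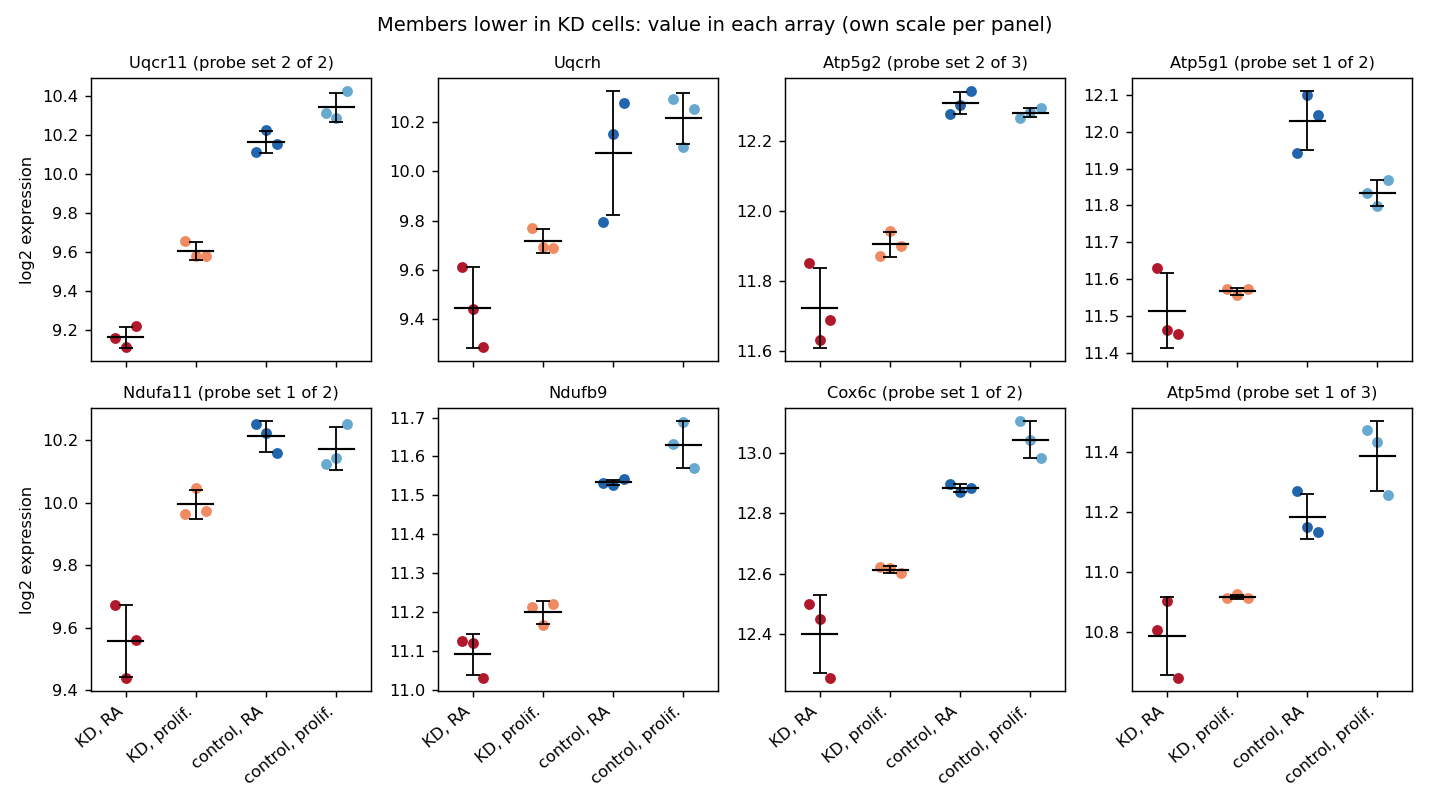
Log2 expression of 8 members in each array, 1 point per array, with the mean and SD of the 3 arrays of a group, each panel on its own scale that does not start at 0. In all 8 panels the KD RA arrays lie below the control RA arrays, and the KD proliferating arrays lie below the control proliferating arrays.

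Promoter sequences were available for 73 of the 90 genes in the RefSeq table of mouse build GRCm38.p6, and those of genes with the largest changes are shown so that their letters can be set beside the values above. Each is the 250 bases before the annotated start, 5′ to 3′ on the strand of the gene. Capitals mark matches, on either strand, to the core of the NRF1 motif (GCGCATGC) or of the ETS motif bound by GABPA (CCGGAAG), factors known as regulators of nuclear-encoded mitochondrial genes. The YY1 core (AAGATGG) was searched as well. The 5 windows are Uqcr11 at chr10:80406822-80407071 (minus strand), Uqcrh at chr4:116075071-116075320 (minus strand), Atp5g2 at chr15:102671048-102671297 (minus strand), Ndufa11 at chr17:56717512-56717761 (plus strand) and Cox7a1 at chr7:30183921-30184170 (plus strand), the last a gene lower after RA.
Uqcr11: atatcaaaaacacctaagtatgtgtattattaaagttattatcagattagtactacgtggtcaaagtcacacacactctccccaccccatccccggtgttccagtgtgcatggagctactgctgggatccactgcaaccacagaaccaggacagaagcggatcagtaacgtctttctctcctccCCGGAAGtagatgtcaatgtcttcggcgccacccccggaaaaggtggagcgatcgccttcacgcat
Uqcrh: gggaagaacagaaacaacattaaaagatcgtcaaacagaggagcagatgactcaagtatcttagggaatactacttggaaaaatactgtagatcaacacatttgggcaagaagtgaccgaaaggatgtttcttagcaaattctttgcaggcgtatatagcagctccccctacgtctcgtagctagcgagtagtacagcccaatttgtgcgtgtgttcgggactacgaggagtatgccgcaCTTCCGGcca
Atp5g2: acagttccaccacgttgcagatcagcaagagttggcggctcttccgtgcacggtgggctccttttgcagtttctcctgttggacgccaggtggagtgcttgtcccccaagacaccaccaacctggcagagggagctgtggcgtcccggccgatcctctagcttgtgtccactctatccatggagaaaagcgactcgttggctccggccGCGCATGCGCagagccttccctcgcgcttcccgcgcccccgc
Ndufa11: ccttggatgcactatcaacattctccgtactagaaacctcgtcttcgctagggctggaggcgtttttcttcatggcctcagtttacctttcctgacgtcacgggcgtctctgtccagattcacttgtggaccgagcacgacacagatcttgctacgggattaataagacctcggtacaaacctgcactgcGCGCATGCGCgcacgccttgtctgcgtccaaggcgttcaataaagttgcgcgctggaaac
Cox7a1: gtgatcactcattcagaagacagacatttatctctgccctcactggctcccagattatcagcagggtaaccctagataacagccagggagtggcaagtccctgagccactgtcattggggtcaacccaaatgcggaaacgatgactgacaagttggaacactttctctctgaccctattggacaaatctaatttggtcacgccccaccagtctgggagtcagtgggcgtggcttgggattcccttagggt

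In Uqcr11 the ETS core began 66 bases before the start and in Uqcrh, on the other strand, 10 bases before it. In Atp5g2 and Ndufa11 the marked palindrome holds the NRF1 core on both strands, beginning 42 and 60 bases before the start, so the 2 matches overlap. The Cox7a1 window holds none of the 3 motifs. In windows that also took in 50 bases after the start, the NRF1 core was found in 12 of 73 member genes (16.4%) and in 688 of 17491 protein-coding genes (3.93%). For the ETS core the shares were 18 of 73 (24.7%) and 12.9%, and for YY1 10 of 73 (13.7%) and 7.18%. Members with and without the NRF1 core had median changes in KD cells of -0.15 and -0.17 after RA and of -0.10 and -0.12 in proliferating cells, and those with and without the ETS core -0.16 and -0.16 after RA and -0.08 and -0.12 in proliferating cells. For RA in KD cells the medians were -0.24 with and -0.11 without the NRF1 core, and -0.18 with and -0.12 without the ETS core. These medians are over probe sets, 21 of 12 genes with the NRF1 core and 29 of 18 genes with the ETS core. In both sets 6 probe sets are of Atp5l, which had -0.32 to -0.26 for RA in KD cells. In calls, 7 of 21 probe sets with the NRF1 core and 10 of 74 without it were lower in KD cells after RA, and 2 and 4 in proliferating cells. The 7 are of Atp5g2 (3 probe sets), Ndufa11 (2) and Uqcr11 (2). With and without the ETS core, 7 of 29 and 10 of 66 were lower after RA. These 7 are of Atp5md (3), Uqcr11 (2), Uqcrh and Ndufs8. Atp5g1, Atp5j2, Ndufa7 and Ndufb8, also called after RA and not printed above, hold neither the NRF1 nor the ETS core. In proliferating cells 6 were lower with the ETS core and 0 without it, where the 6 are of the 3 genes Atp5md, Uqcr11 and Uqcrh. The other 3 probe sets called there, of Ndufb9, Ndufa4l2 and Cox6c, had no promoter matched and are in neither count. These differences were not tested. A match is only a match of letters, and binding was not measured.

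The response to RA was first taken in control cells. There 4 of 115 probe sets were called, 3 lower and 1 higher in control RA than in control proliferating cells, where 4.51% of all probe sets were called, 1.83% lower and 2.68% higher. By the adjusted p alone 13 were lower and 3 higher, against 8.95% and 8.58% of all probe sets, and at an unadjusted p under 0.05 the numbers were 40 and 7. Of the 10894 probe sets above the median level, 7.58% were called. By the adjusted p alone 1717 of these were lower and 1587 higher. All 3 control RA arrays lay below the 3 control proliferating arrays for 42 members and above them for 8, against 17% and 16.5% of all probe sets. The median change was -0.09 over the members and 0.00 over all probe sets. All 4 called genes encode alternative isoforms. Cox6a2, the heart and muscle form of subunit 6a, read 9.12, 9.21 and 9.15 in control RA cells and 8.58, 8.69 and 8.74 in control proliferating cells, and rose by 0.50 ± 0.06 on the log2 scale (limma adjusted p = 6.81e-05). It was the only member called higher in any of the 4 comparisons of groups.

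Cox7a1, the heart and muscle form of subunit 7a, read 6.99, 7.31 and 7.34 in control RA cells and 7.88, 7.85 and 7.71 in control proliferating cells, a fall of 0.60 ± 0.12 (limma adjusted p = 0.00298). Cox4i2, the form of subunit 4 typical of lung, read 7.44, 7.45 and 7.41 in control RA cells and 7.96, 7.85 and 7.97 in control proliferating cells, and fell by 0.50 ± 0.09 (adjusted p = 0.00145). Ndufa4l2, a hypoxia-inducible paralogue of Ndufa4 (a subunit named for complex I and since assigned to complex IV), read 6.83, 7.11 and 6.92 in control RA cells and 7.51, 7.50 and 7.42 in control proliferating cells, and fell by 0.52 ± 0.07 (adjusted p = 0.000243). The groups did not overlap for any of the 4. Ndufa4l2 and Cox7a1 read close to or under the median level of 7.44 of the probe sets tested, and Cox4i2 read close to it in control RA cells. When only probe sets above that level were tested, 2 of the 4 calls remained.

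In KD cells RA lowered 7 of 115 probe sets (6 genes) and raised 0, where 4.9% of all probe sets were called, 2.32% lower and 2.58% higher. By the adjusted p alone 38 were lower and 1 higher, against 13.3% and 7.81% of all probe sets, and at an unadjusted p under 0.05 the numbers were 59 and 5. Of the 10894 probe sets above the median level, 8.22% were called, which is more than the 6.09% of the members. By the adjusted p alone 2599 of these 10894 were lower and 1393 higher. All 3 KD RA arrays lay below the 3 KD proliferating arrays for 61 members and above them for 5, against 21.4% and 13.5% of all probe sets. The median change was -0.11 over the members and -0.02 over all probe sets. Cox7a1 read 6.97, 7.14 and 6.97 in KD RA cells and 7.46, 7.92 and 7.57 in KD proliferating cells, a fall of 0.62 ± 0.12 (limma adjusted p = 0.00204). Cox4i2 read 7.15, 7.39 and 7.57 in KD RA cells and 7.86, 7.85 and 7.70 in KD proliferating cells, and fell by 0.43 ± 0.09 (adjusted p = 0.00324), or by 0.32 without KD RA array 1, which is under 1.3-fold. Cox6a2 read 9.25, 9.11 and 9.13 in KD RA cells and 8.84, 8.87 and 8.72 in KD proliferating cells, a change of 0.35 ± 0.06 (adjusted p = 0.000894) that missed the fold limit.

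**Figure D4:**
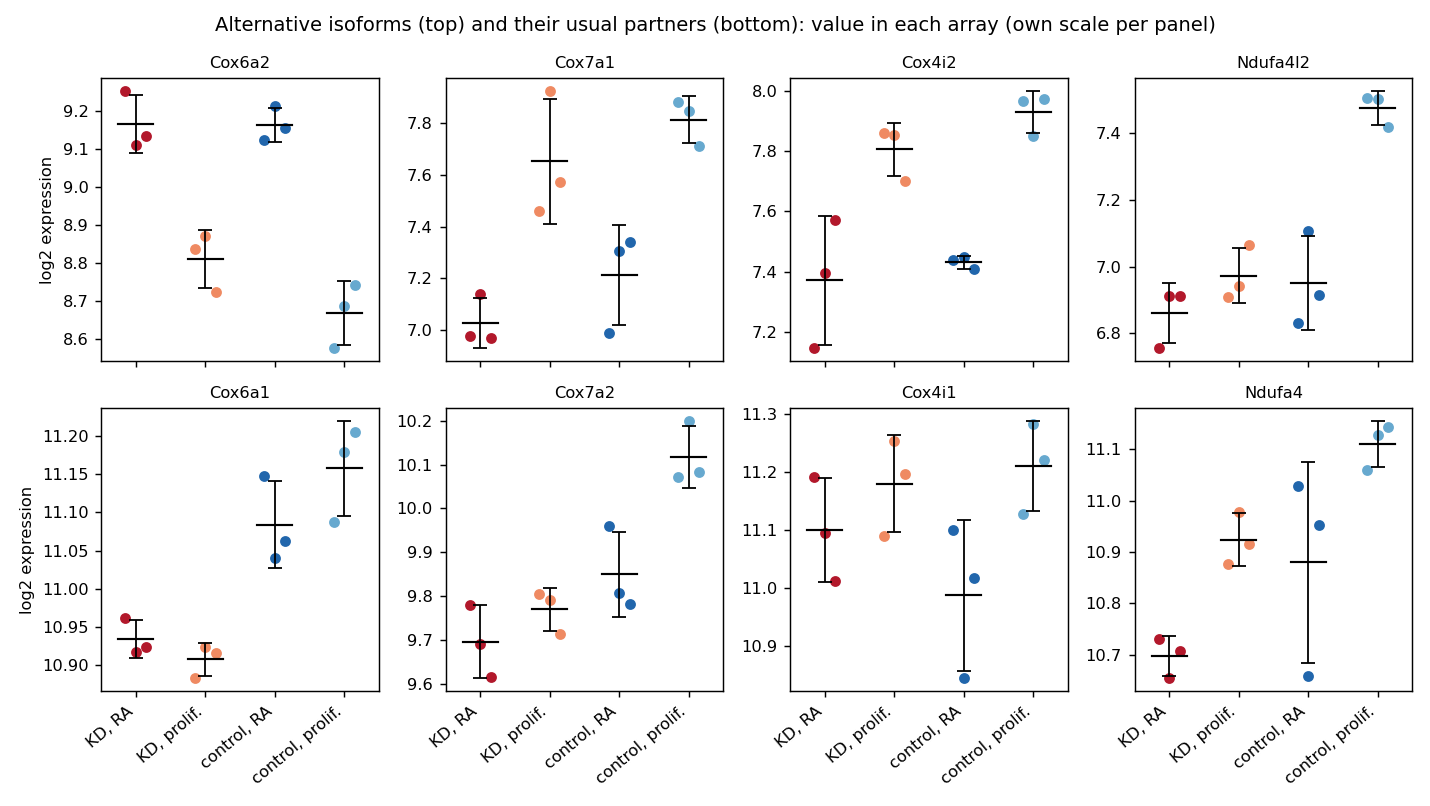
Log2 expression in each array of 4 alternative isoforms (top row) and of the general form of each (bottom row), with the mean and SD of the 3 arrays of a group, each panel on its own scale that does not start at 0. Cox6a2 is higher after RA in both kinds of cells, Cox7a1 and Cox4i2 are lower after RA in both, and Ndufa4l2 is high only in the 3 control proliferating arrays (7.42 to 7.51).

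Ndufa4l2 was lower in KD proliferating cells (6.91, 6.94 and 7.07) than in control proliferating cells (7.51, 7.50 and 7.42), by -0.50 ± 0.07 (limma adjusted p = 0.000476), and read 6.76, 6.91 and 6.91 in KD RA cells and 6.83, 7.11 and 6.92 in control RA cells, which overlapped. Its RA change was -0.11 ± 0.07 in KD cells and -0.52 ± 0.07 in control cells, a difference of 0.41 ± 0.10 that did not pass the test of the interaction (adjusted p = 0.0937).

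The general partners of these isoforms had smaller RA changes. Cox6a1, Cox7a2, Cox4i1 and Ndufa4 had 0.03, -0.07, -0.08 and -0.23 in KD cells and -0.07, -0.27, -0.22 and -0.23 in control cells, with 0 called. Of the other alternative forms, Cox6b2, Cox7b2, Cox8b and Cox8c, which are known from testis or heart and muscle, had changes between 0.03 and 0.18 in KD cells and between -0.14 and 0.11 in control cells, none called. Cox8a, their general counterpart for subunit 8, had -0.06 and -0.03.

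The remaining members called for RA in KD cells were subunits also lower in KD than in control cells after RA, or near to it. The 2 comparisons share the KD RA arrays. Uqcr11 fell by 0.46 ± 0.09 and 0.44 ± 0.05 on its 2 probe sets (limma adjusted p = 0.00246 and 6.43e-05), against changes of -0.22 and -0.18 in control cells. Ndufa11 fell by 0.44 ± 0.06 on its first probe set (adjusted p = 0.00024), against 0.04 in control cells, and had -0.17 on the second. Ndufs8 fell by 0.39 ± 0.05 (adjusted p = 0.000178), against -0.06 in control cells.

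Atp5e, the epsilon subunit of the ATP synthase stalk, read 8.40, 8.16 and 8.44 in KD RA cells and 8.67, 8.85 and 8.76 in KD proliferating cells, and fell by 0.43 ± 0.07 (limma adjusted p = 0.000941), against -0.12 in control cells. Several of these calls depended on 1 array. Atp5e had -0.34 without KD RA array 2, Ndufs8 had -0.36 without KD RA array 2 and -0.37 without KD RA array 3, and the first probe set of Uqcr11 had -0.36 without KD RA array 1, each under 1.3-fold. Atp5mpl, a small proteolipid of complex V, had the largest change of complex V in control cells, at -0.31 ± 0.07 (adjusted p = 0.00609, not called), and -0.23 ± 0.07 in KD cells.

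Whether the RA response differed between KD and control cells was tested as the interaction, the RA change in KD cells minus that in control cells. Of the members, 1 of 115 probe sets passed, against 0.399% of all probe sets (0.138% positive and 0.262% negative). Positive differences made up 34.5% of the 87 calls, 48.8% after centring the arrays on their medians and 54.1% after a repeated quantile normalisation. The member was the first probe set of Ndufa11, with a difference of -0.48 ± 0.09 (limma adjusted p = 0.0314), and its second probe set had -0.18 ± 0.07 (adjusted p = 0.261). The call was lost when any 1 of 11 arrays was left out, with adjusted p between 0.058 and 0.0891, and was kept without KD RA array 1. The median interaction was -0.05 over the members and -0.02 over all probe sets, and complexes I, II, III, IV and V had -0.04, -0.07, -0.02, -0.03 and -0.05.

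The changes in KD cells were also read by chromosome. Of the 8 member probe sets on chromosome 15 (Atp5g2, Cox6c, Cyc1, Ndufa6 and Ndufb9), all 8 had negative changes after RA, with a median of -0.46, and the other genes of that chromosome had a median of -0.21, 88.5% of them below 0. On chromosome 13, 7 of 8 member probe sets (of Uqcrb, Sdha, Ndufs4, Ndufs6, Ndufaf2 and Uqcrfs1) were above 0, with a median of 0.15, and the other genes had a median of 0.09. Members did not go with the other genes everywhere. On chromosome 9 the other genes had a median of 0.11 while 9 of 11 members lay below 0, with a median of -0.10, and on chromosome 8 the other genes had 0.11 while 2 of 3 members lay below 0, with a median of -0.02. Each member was therefore set against the median change of up to 50 protein-coding genes nearest to it in RefSeq gene order, 25 on each side, out of 9426 such genes above the median level.

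These neighbour medians ran from -0.24 to 0.31 after RA and from -0.20 to 0.34 in proliferating cells. Over the 115 members, which are not independent because probe sets of a gene share a neighbourhood and all share the same arrays, member and neighbour values correlated at 0.557 and 0.57. Less its neighbours, the median member change was -0.15 after RA and -0.16 in proliferating cells, and 93 and 101 of 115 members lay below their neighbours. Of the 19 members called after RA, 12 stayed past 1.3-fold relative to their neighbours, and of the 9 called in proliferating cells, 7. Uqcr11 was at -0.67 and -0.83 and Ndufa11 at -0.59 on its first probe set after RA, whereas Ndufb9 was at -0.23. Sdha, whose neighbours had a median change of 0.31, was at -0.09. Copy number was not measured, and its part in these values was not tested.

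**Figure D5:**
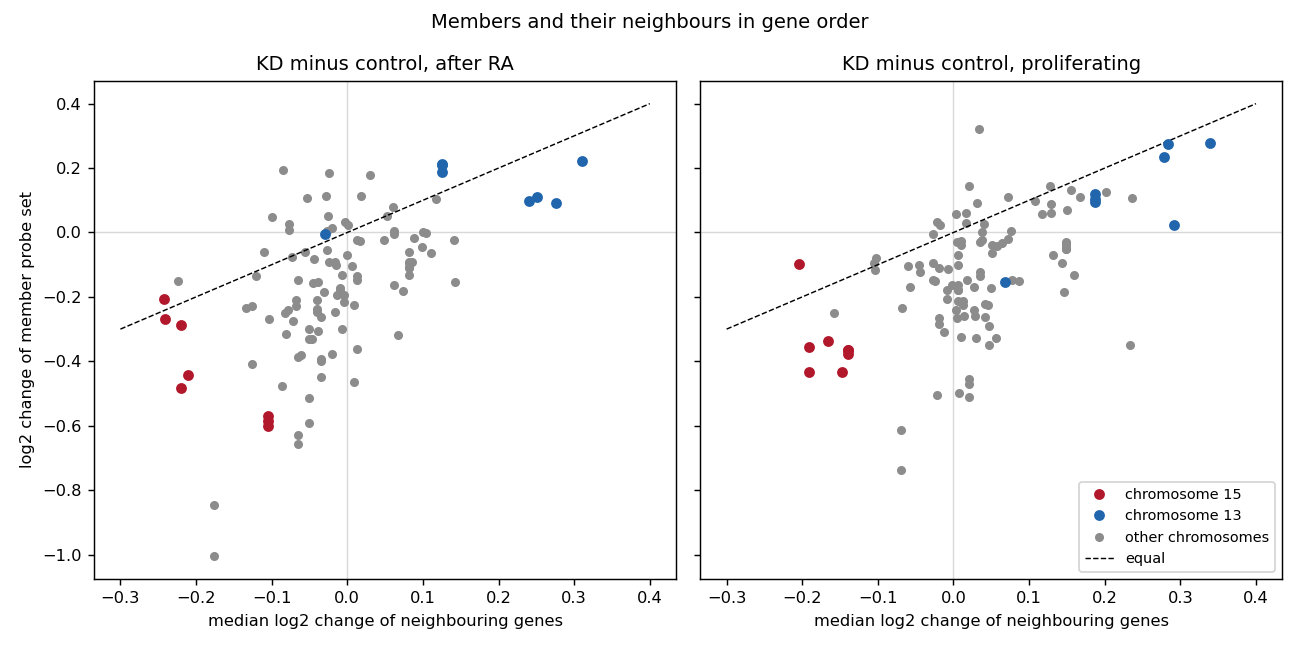
Log2 change (KD minus control) of each member probe set against the median change of its neighbouring genes, after RA on the left and in proliferating cells on the right, with members on chromosomes 15 and 13 coloured and the line of equal change dashed. After RA 93 and in proliferating cells 101 of the 115 points lie below the line.

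Several genes were read by more than 1 probe set, 17 of the 90 genes with 42 probe sets in all. The largest gap between probe sets of a gene over the 4 comparisons of groups had a median of 0.07 and a highest value of 0.27, reached by Ndufa11. Calls differed between probe sets of a gene for Cox6c and Ndufa11 only. Such probe sets can lie on near-identical copies of a gene elsewhere in the genome, which the array cannot separate, so they are not separate evidence for a gene. The counts and medians over members are of probe sets, and Atp5l enters them 6 times. With 1 probe set per gene, 12 of 90 were called in KD against control cells after RA and 6 in proliferating cells, with medians of -0.14 and -0.11.

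Other genes of mitochondrial energy metabolism were read from 6 further lists. None of the 13 genes encoded by mitochondrial DNA had a probe set with a single symbol. The citric acid cycle enzymes (13 probe sets) and the biogenesis regulators such as Ppargc1a, Nrf1 and Gabpa (14 probe sets) had 0 called in all 5 comparisons. Their median changes in KD against control cells were 0.01 and -0.01 after RA and 0.02 and 0.06 in proliferating cells. At an unadjusted p under 0.05, 3 citric acid cycle probe sets were higher and 5 lower after RA, and 5 were higher and 0 lower in proliferating cells. For the biogenesis regulators these were 2 and 2 after RA and 4 and 1 in proliferating cells. Electron carriers and shuttles (10 probe sets) also had 0 called, with 1 higher and 3 lower after RA at an unadjusted p under 0.05 and 0 and 2 in proliferating cells. For RA in KD cells, the citric acid cycle list had a median of -0.15, where the members had -0.11. By the adjusted p alone 6 of its 13 probe sets were lower there and 0 higher. The biogenesis regulators had a median of -0.04 and the electron carriers and shuttles 0.00 in that comparison.

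Of 24 probe sets of assembly factors with other names, only the 2 of Uqcc2, an assembly factor of complex III, were called. They fell by 0.54 ± 0.05 and 0.41 ± 0.07 in KD RA against control RA cells (limma adjusted p = 2.36e-05 and 0.00104), and had -0.15 and -0.18 in proliferating cells. The interaction of the first was -0.38 ± 0.07 (adjusted p = 0.0368). Of 85 probe sets of mitochondrial ribosomal proteins, 4 were lower in KD cells after RA (Mrpl13, Mrpl34, Mrpl54 and Mrpl58, at -0.40 to -0.57) and 4 were higher in proliferating cells (Mrpl36, Mrps30 and the 2 of Mrps36, at 0.39 to 0.45), 4.71% in each state against 3.8% and 3.36% of all probe sets. By the adjusted p alone 24 were lower and 5 higher after RA, and 7 were lower and 13 higher in proliferating cells, with medians of -0.09 and 0.00. For RA in KD cells, 35 of the 85 were lower by the adjusted p alone and 0 higher, with a median of -0.14. The respiratory chain was thus not alone in its lower median with RA in KD cells.

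Of 19 probe sets of glycolysis genes, 9 fell with RA in KD cells and 10 in control cells, and all 19 had negative changes in control cells. The median changes were -0.34 in KD cells and -0.39 in control cells. Aldoc, an aldolase, changed with RA by -1.36 ± 0.06 in KD cells and -1.59 ± 0.06 in control cells (limma adjusted p = 6.27e-08 and 1.7e-08). The median over the 19 glycolysis probe sets between KD and control cells was -0.08 after RA and -0.15 in proliferating cells. By the adjusted p alone 5 were lower and 2 higher after RA and 7 lower and 2 higher in proliferating cells, and at an unadjusted p under 0.05 these were 9 and 4 after RA and 12 and 3 in proliferating cells. Aldoc was the only glycolysis gene called between KD and control cells, at -0.48 ± 0.06 in proliferating cells (adjusted p = 0.000133), the comparison in which Ndufa4l2 fell by 0.50 ± 0.07. The muscle markers were called in 0 of 6 cases for RA in either kind of cell, and their mean level lay between 6.85 and 7.05 in all 12 arrays, beside the changes of the muscle forms Cox6a2 and Cox7a1.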

How the data were processed

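RNA of 12 arrays in 4 groups of 3 was analysed. The deposited log2 values were made by the authors from Affymetrix Mouse Gene 1.0 ST arrays in R with oligo, limma and genefilter, with the RMA method, which corrects the background, quantile-normalises the arrays and gives 1 value per gene-level probe set. Versions and genome build were not given in the sources used here. Quantile normalisation forces all arrays to 1 distribution, so a change shared by most genes cannot be seen. Arrays give no read depth, and the precision is limited by 3 arrays per group.

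Of 35556 probe sets, 21789 had 1 gene symbol, 1621 several and 12146 none in the platform annotation. Of the single-symbol probe sets 21698 matched RefSeq by Entrez identifier, 91 did not, and no symbol changed. Probe sets with several symbols were left out of the members, which removed 6 that name a gene of the rule. The members and gene lists were chosen with earlier results of these data known, and the division of members by role was made after their values were seen.

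A linear model with 4 group means was fitted to all single-symbol probe sets with limma 3.58.1 (R 4.3.3; lmFit, contrasts.fit and eBayes with default settings, two-sided), and p-values were adjusted by Benjamini-Hochberg over all of them. Calls needed an adjusted p under 0.05 and 1.3-fold, as in the methods of the study, whose filter on variance was kept as an alternative. The scripts were tested on simulated data. The members named were those called in a comparison (up to 12 per direction by size of change), the member of each complex with the largest change, the alternative isoforms with their general partners, Cyc1 and the complex II subunits, genes whose probe sets disagreed, and up to 4 called genes per other list. Others named beside them were chosen after their values were seen. Alternatives were 1 or the mean of the probe sets per gene, other sets of probe sets, centring, repeated quantile normalisation, array weights, an intensity trend, the 2 groups alone, a replicate block, and leaving out each array.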

Additional observations from a re-analysis of the deposited data

Results flagged for a closer look

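The RA response of Ndufa11 passed the test of a difference between KD and control cells on the first of its 2 probe sets, but not stably. The RA change in KD cells minus that in control cells was -0.48 ± 0.09 on the log2 scale (limma interaction term, adjusted p = 0.0314), with RA changes of -0.44 in KD cells and 0.04 in control cells. On the second probe set the difference was -0.18 ± 0.07 (limma adjusted p = 0.261). On the first probe set the adjusted p was 0.0616 with the replicate number as a block and 0.0588 with all probe sets tested, and 0.0574 with the mean of both probe sets (a difference of -0.33). When each of the 12 arrays was left out in turn, the call was lost for 11, at 0.058 to 0.0891, and kept without KD RA array 1.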

How the results depend on the processing

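No median of the members and no called member turned its direction under any of the 24 settings run. Of the members called, 14 of 19 (KD RA against control RA), 9 of 9 (KD proliferating against control proliferating), 4 of 4 (control RA against control proliferating), 2 of 7 (KD RA against KD proliferating) and 0 of 1 (interaction) stayed called wherever they were tested. The losses were of Ndufa11 (probe set 2), Ndufb8 and the 3 probe sets of Atp5md after RA, and of Ndufa11, Ndufs8, Uqcr11 (probe set 1), Cox4i2 and Atp5e for RA in KD cells. The cause was not tested.

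In KD RA against control RA cells, 12 members were called with 1 probe set per gene or with the mean of the probe sets of a gene, and 11 after the filter on variance, which kept 9969 genes and 61 members, because fewer probe sets were counted. The median after that filter was -0.21 in this comparison, -0.17 in KD proliferating against control proliferating cells and -0.17 in KD RA against KD proliferating cells. Without the fold limit 59, 44, 16 and 39 members were called in the 4 comparisons of groups, in the order above. In control RA against control proliferating cells 2 were called when only probe sets above the median level were tested. Less its neighbouring genes, the median for KD proliferating cells was -0.16.

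Leaving out each array in turn gave 16 to 20 called members, 9 to 13, 4 in each case, and 6 to 8 in the 4 comparisons of groups. For the interaction it gave 0 to 3, with 3 only without KD RA array 1, and medians of -0.073 (without control RA array 2) to -0.012 (without control RA array 1). The interaction count was 0 with the mean of the probe sets of a gene or with all probe sets tested, and 2 with an intensity trend, which added Ndufa4l2 (0.41, limma adjusted p = 0.0372). At an unadjusted p under 0.05 the interaction had 17 lower and 6 higher members.

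Whether the replicate numbers of the labels pair the samples could not be decided. The correlation of same-numbered deviations ran from -0.077 to 0.211, and the highest with another number from -0.093 to 0.134. Between control RA and KD RA the same-numbered values were 0.199, -0.012 and 0.134 for replicates 1, 2 and 3. The highest with another number were 0.058, 0.117 and -0.051. A fit with the number as a replicate block gave 0 called members for the interaction, and changed no other call of a member. Over all genes the interaction count was 87, and it was 59 with the block, 133 with array weights, 136 above the median level, 175 with the intensity trend and 32 to 128 without single arrays. With all 35556 probe sets tested, 1902 were called after RA (828 with 1 symbol), 1253 in proliferating cells (733) and 1688 for RA in KD cells (1068). Without the fold limit 4702, 4015, 3820 and 4607 of all probe sets passed in the 4 comparisons of groups. Of the 115 member probe sets, 108 lay above the median level of 7.44, and the values of the rest are closer to the background of the array.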

Other observations

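Further probe sets of subunits are assigned by the annotation to more than 1 gene, and they were left out of all counts. The 2 probe sets shared by Ndufb4 and Ndufb4b, which belong to the membrane arm of complex I, averaged 11.07 and 11.51 in KD RA cells, 11.36 and 11.78 in KD proliferating cells, 11.40 and 11.82 in control RA cells and 11.71 and 12.12 in control proliferating cells. Their changes in KD cells were -0.33 and -0.31 after RA and -0.35 on both in proliferating cells, under 1.3-fold. The probe set shared by Ndufs5, which also has a probe set of its own among the members, and a pseudogene had changes of -0.29 after RA and -0.16 in proliferating cells, and the 3 shared by Cox7c and a predicted gene had 0.04 to 0.06 after RA and -0.03 to -0.01 in proliferating cells.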
